A study of Rattus norvegicus with 11 samples.

Results

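Goblet cells are the mucus-secreting cells of the intestinal epithelium, and 10 genes of their mucus program were followed in the ileum of rats: Muc2, Fcgbp, Zg16, Clca1, Tff3, Retnlb, Muc13, Muc1, Agr2 and Spdef. The genes were chosen by symbol, and all 10 were found among the 24481 genes with read counts and the 24205 genes with FPKM values (fragments per length of the gene, scaled to library size). The data are 11 RNA libraries of ileum tissue from rats of the SD strain, stated to be male and 6 to 8 weeks old. The control group held 3 libraries. Another 4 came from the SAP group (severe acute pancreatitis, induced with 3% sodium taurocholate in the pancreatic duct) and 4 from the JZL184 group, in which rats with SAP received 10 mg/kg JZL184, an inhibitor of monoacylglycerol lipase. Control and SAP rats received vehicle, injections were given 24 h after surgery, and the rats were killed 24 h later. The sample labels name a control plasmid in the control group and their titles name oil in the SAP group, and whether control rats had sham surgery is not given in the sources used here.

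Intestinal mucus is a net of the gel-forming mucin Muc2, a heavily glycosylated protein that goblet cells fold in the endoplasmic reticulum, decorate with sugars in the Golgi, store in granules and release into the gut lumen. Other secreted proteins bind or trim this net, and transmembrane mucins form a separate coat on the cell surface of many epithelial cells. In the small intestine the mucus is loose and passes nutrients, whereas in the colon it forms an attached layer that keeps bacteria away.

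Promoter sequences of 9 of the 10 genes were matched in RefSeq (build GRCr8, a window that reaches from before to just after the gene start), with Zg16 unmatched. Short motifs were searched on both strands as exact letters. The E-box CAGCTG, a palindrome of the kind bound by basic helix-loop-helix factors such as Atoh1, lay in the promoters of Muc2 and Retnlb, that is 2 of 9, against 15.1% of 33469 rat promoters. The TATA box letters TATAAA lay in those of Muc2, Muc1 and Tff3, against 14.2% of all promoters. The letters ACGTG lay in none of the 9, against 19.3% of all promoters. Windows of 30 bases around each match are shown, and a link between these letters and the levels of the genes was not tested. Capitals mark the motif, and the motifs did not overlap each other.
Muc2 E-box, chr1:206228911-206228940, plus strand: gtggagcccccaCAGCTGtcttcctgataa
Retnlb E-box, chr11:65448426-65448455, minus strand: ccatagccaaggCAGCTGttgcttatcaaa
Muc2 TATA letters, chr1:206228849-206228878, plus strand: cccagggagtcaTATAAAgataaactcaga
Muc1 TATA letters, chr2:176933705-176933734, plus strand: gagggggactggTATAAAgcagcaggcacc
Tff3 TATA letters, chr20:9199339-9199368, minus strand: caaacacatggcTATAAAagggctttcctt
The TATA letters began 23 bases before the annotated start of Tff3 and 33 bases before that of Muc1, but 174 bases before that of Muc2. A match is a description of the letters and not of a bound factor.

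Between 26341299 and 33847135 reads per library lay on genes. Libraries 1 and 2 of the control group were nearly alike: the mean chi-square of a gene with at least 20 reads was 2.81 between them, and 77.5 to 563 in all other pairs within a group. They were counted as 1 sample, so that n = 2 in the control group. Library 3 of the JZL184 group stood apart from the 10 others. The summed FPKM of 15 enterocyte markers was 2004 in it against 13450 to 47720 elsewhere, and that of 8 Paneth cell markers was 961 against 5980 to 16480. Car1, a carbonic anhydrase of the colon, was at 478 FPKM in it and at 24.5 or less elsewhere. Hoxd10, a gene of the posterior body axis, was at 4.49 against 0.07 or less. In this library Car1 made up most of the summed FPKM of 7 colon position markers, 484.6 against 2.94 to 29.4 elsewhere. The geometric mean of these 7 (taken after adding 1 to each FPKM, then removing it) was 2.81 against 0.311 to 1.15. The ileal bile acid binding protein Fabp6 was at 79.9 in this library against 409.74 to 21819 elsewhere. Library 1 of the JZL184 group held that next lowest Fabp6 value and the highest levels of the proximal gut genes Gata4 (7.73) and Lct (44.5). Libraries 1 and 2 of the SAP group had enterocyte marker sums of 13450 and 14740, against 31440 and 31480 in SAP libraries 3 and 4. The geometric mean of these 15 markers, taken in the same way, did not split the SAP libraries like the sums. It was 117, 195, 124 and 180 in SAP libraries 1 to 4, and 198 to 205 in the control libraries. Read levels in SAP libraries 1 and 2 were shifted toward long genes. SAP library 2 had 28 reads on 4 genes of the Y chromosome, against 1224 to 4668 in the other libraries, although the rats are stated to be male. The labels call the material intestinal epithelial cells, but summed FPKM of 8 smooth muscle markers reached 2148, so it was treated as whole ileum tissue. In such tissue, fewer goblet cells and less RNA per goblet cell cannot be told apart. Nothing states how rats and libraries correspond beyond the group sizes, so p-values measure the spread between these samples.

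**Figure D1:**
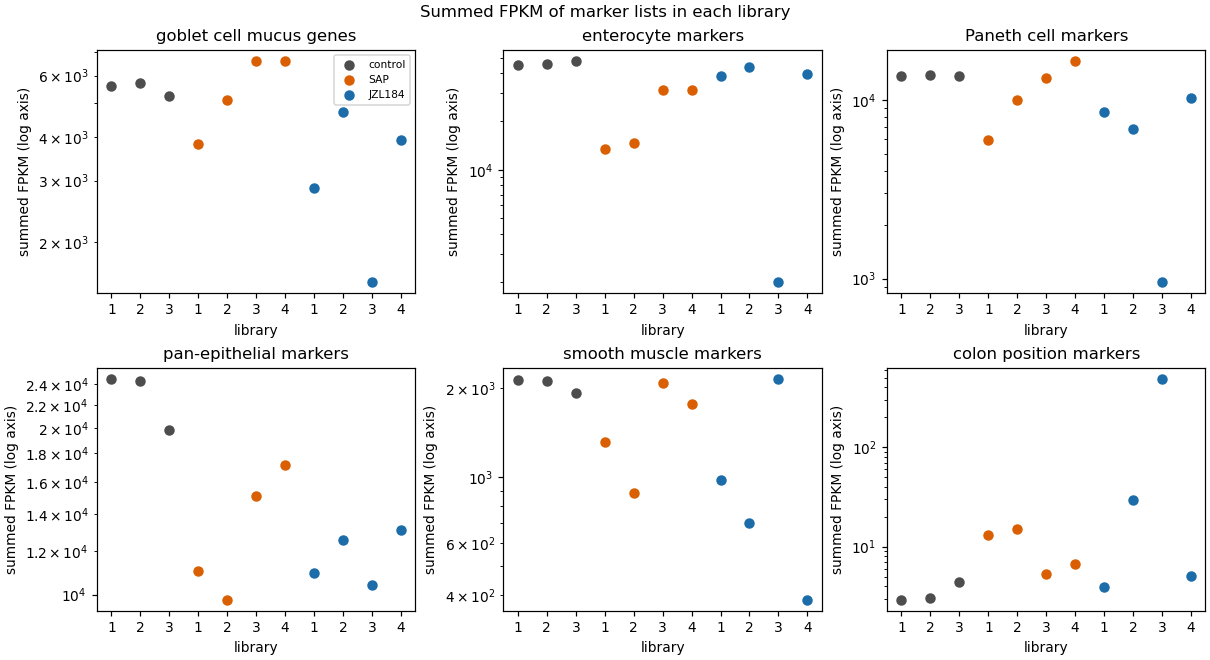
Summed FPKM (log axis) of 6 marker lists in each of the 11 libraries, one point per library, with library numbers on the x axis and colours for the groups. JZL184 library 3 is lowest for the goblet cell mucus genes, enterocyte markers and Paneth cell markers and highest for the colon position markers. Most of that colon position sum is Car1.

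The most abundant of the genes in the control group was Tff3, with a mean of 1717 FPKM. Tff3 was at rank 60 of 24205 genes, followed by Muc13 at rank 91, Zg16 at rank 109, Agr2 at rank 167 and Fcgbp at rank 281. Clca1 was at rank 665, Muc2 at rank 1133 and the transcription factor Spdef at rank 4550. Muc1 at rank 12054 and Retnlb at rank 14129 were the lowest of the 10, at 0.495 and 0.19 FPKM, with 7 to 57 and 0 to 12 reads per library. The 10 genes took 1.11% to 1.25% of the reads in control libraries, 1.21% to 1.74% in SAP libraries and 0.852% to 1.07% in JZL184 libraries. The shares of the JZL184 libraries were thus all below those of both other groups, as a description with no test.

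**Figure D2:**
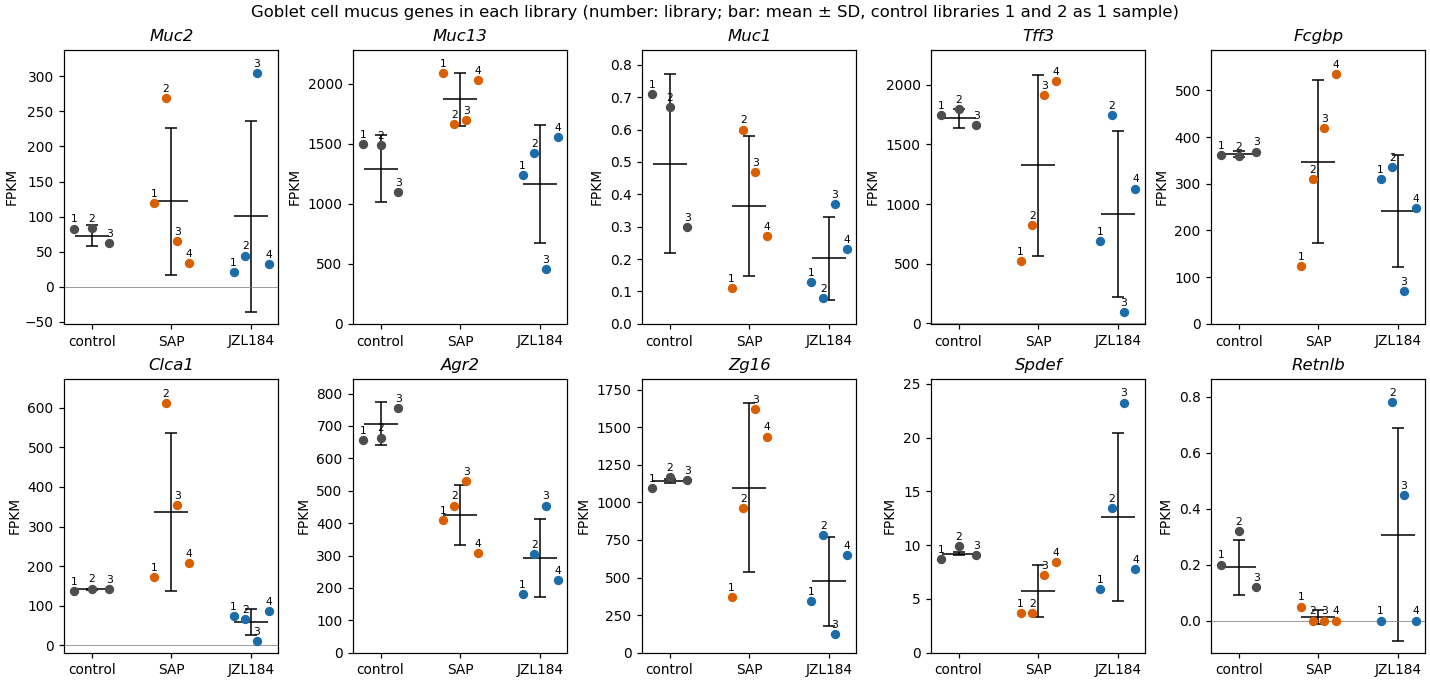
FPKM of the 10 goblet cell mucus genes, with 1 panel per gene. Numbers are libraries and bars are mean ± SD per group, with control libraries 1 and 2 as 1 sample. All JZL184 libraries lie below the SAP and control libraries for Clca1, while Muc2 spans 21.1 to 304 FPKM within the JZL184 group.

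Muc2 did not differ between the groups beyond its spread, which was wide in both SAP groups. Muc2 stood at 83.0, 84.3 and 62.1 FPKM in control libraries 1 to 3, at 119, 269, 65.2 and 34.2 in the SAP libraries and at 21.1, 44.6, 304 and 32.3 in the JZL184 libraries. The high values were those of SAP libraries 1 and 2 and JZL184 library 3, and the groups overlapped. The means were 72.9 ± 15.3 FPKM (SD, n = 2), 122 ± 104 (SD, n = 4) and 101 ± 136 (SD, n = 4). In edgeR, Muc2 had a log2 fold change of 0.50 (SE 0.71) in SAP against control, -0.10 (SE 0.85) in JZL184 against SAP and 0.36 (SE 0.96) in JZL184 against control, with adjusted p of 0.716, 0.950 and 0.837. Single libraries set its sign. Without JZL184 library 3 the log2 fold change was -1.60 against SAP (adjusted p = 0.275) and -1.13 against control (adjusted p = 0.124), and without SAP libraries 1 and 2 that of SAP against control was -0.64. Muc2 has an implied length of 19210 bases, the longest of the 10 genes, and the same 2 SAP libraries had a longest-tenth minus shortest-tenth difference of 1.30 and 1.42 on the log2 scale, against -0.83 to 0.23 in the other samples. With offsets for gene length the SAP value was -0.37.

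Fcgbp and Zg16, which bind the Muc2 net and bacteria respectively, were abundant and overlapped between SAP and control. Fcgbp was at 361, 359 and 369 FPKM in the control libraries, at 124, 311, 419 and 536 in the SAP libraries and at 310.36, 336, 70.3 and 247 in the JZL184 libraries. The lowest values were those of SAP library 1 and JZL184 library 3. Its log2 fold change was -0.20 (SE 0.57) in SAP against control, -0.38 (SE 0.59) in JZL184 against SAP and -0.60 (SE 0.57) in JZL184 against control. Zg16, a lectin of the mucus, was at 1096, 1168 and 1149.9 FPKM in the control libraries, at 368, 965, 1623 and 1437 in the SAP libraries and at 343, 785, 127 and 647 in the JZL184 libraries. All JZL184 libraries lay below all control libraries for Zg16, and JZL184 and SAP libraries overlapped. The log2 fold change of Zg16 was -0.19 (SE 0.57) in SAP against control, -1.03 (SE 0.64) in JZL184 against SAP and -1.24 (SE 0.64) in JZL184 against control, with edgeR adjusted p of 0.865, 0.355 and 0.251. Fcgbp and Zg16 passed the test in none of the 3 comparisons.

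Clca1, a secreted metalloprotease that trims the mucus, had the widest difference between the 2 SAP groups among the 9 genes with enough reads to test. It was at 138, 144 and 142 FPKM in the control libraries, at 174, 611, 355 and 208 in the SAP libraries and at 74.2, 65.6, 11.7 and 86.5 in the JZL184 libraries. Every JZL184 library lay below every SAP and control library. Every SAP library lay above the controls in FPKM, but in TMM-normalized CPM (counts scaled to library size) SAP library 1 at 619 lay between the control samples at 573 and 624. The means were 141 ± 0.87 FPKM (SD, n = 2), 337 ± 199 (SD, n = 4) and 59.5 ± 33.0 (SD, n = 4). Clca1 had a log2 fold change of -2.29 (SE 0.62) in JZL184 against SAP, which missed the threshold with edgeR (adjusted p = 0.110), whereas DESeq2 gave the same change an adjusted p of 0.0051. Over all alternatives its adjusted p ran from 0.0051 to 0.256 and its change from -2.53 to -1.88. Without JZL184 library 3 the change was -1.94 (adjusted p = 0.144). In SAP against control the log2 fold change of Clca1 was 1.06 (SE 0.52, adjusted p = 0.459), and in JZL184 against control -1.26 (SE 0.64, adjusted p = 0.247). Without SAP library 2, which held the highest value, edgeR gave 0.67 in SAP against control (adjusted p = 0.736). In JZL184 against SAP the change was then -1.91 (adjusted p = 0.230).

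Tff3, a small trefoil peptide secreted with mucin and known for epithelial repair, was the most abundant of the 10 genes in control ileum. It was at 1749, 1793 and 1664 FPKM in the control libraries, at 526, 824, 1914 and 2029.5 in the SAP libraries and at 693, 1745, 96.1 and 1129.5 in the JZL184 libraries. SAP libraries 1 and 2 lay below and SAP libraries 3 and 4 above all controls in FPKM, but in normalized counts SAP library 3 at 924 CPM lay between the control samples at 847 and 989. Tff3 had a log2 fold change of -0.50 (SE 0.59) in SAP against control, -0.35 (SE 0.77) in JZL184 against SAP and -0.87 (SE 0.85) in JZL184 against control, with edgeR adjusted p of 0.662, 0.805 and 0.533. With offsets for gene length the first of these changes was -0.096. Without JZL184 library 3 it was 0.03 in JZL184 against SAP.

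Retnlb, a resistin-like antibacterial protein of goblet cells, was barely detected. It had 3, 5 and 2 reads in the control libraries, 1, 0, 0 and 0 in the SAP libraries and 0, 12, 7 and 0 in the JZL184 libraries. At this depth 3 reads, the number that a count of 0 allows, correspond to 0.0886 to 0.114 CPM, which covers counting error only. Retnlb did not pass the filter on low counts and no fold change is given.

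Muc13 and Muc1 are transmembrane mucins of the epithelial cell surface, which are anchored in the membrane and not secreted into the gel. Muc13 was at 1495, 1486 and 1096 FPKM in the control libraries, at 2091, 1666, 1699 and 2030.4 in the SAP libraries and at 1238, 1420.1, 452 and 1552 in the JZL184 libraries. The SAP values were all above those of both other groups in FPKM, but not in normalized counts, where SAP libraries 2 and 3 at 4861 and 5399 CPM lay below the sample of control libraries 1 and 2 at 5479.6 CPM. JZL184 library 3 was the lowest of the 11. Its log2 fold change was 0.36 (SE 0.35) in SAP against control, -0.50 (SE 0.42) in JZL184 against SAP and -0.16 (SE 0.52) in JZL184 against control, with edgeR adjusted p of 0.598, 0.492 and 0.864. Without JZL184 library 3 the last of these was 0.12. Muc1 was at 0.71, 0.67 and 0.30 FPKM in the control libraries, at 0.11, 0.60, 0.47 and 0.27 in the SAP libraries and at 0.13, 0.08, 0.37 and 0.23 in the JZL184 libraries. The 3 groups overlapped, and its log2 fold changes of -0.68 (SE 0.69), -0.68 (SE 0.60) and -1.38 (SE 0.64) in the same order passed no test.

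Agr2, a disulfide isomerase of the endoplasmic reticulum that is needed to make Muc2, was below the control level in all 8 libraries of rats with SAP. It was at 655, 664 and 755 FPKM in the control libraries, at 409.99, 454, 529 and 307 in the SAP libraries and at 181, 305, 454 and 224 in the JZL184 libraries. SAP and JZL184 libraries overlapped with each other and neither overlapped with the controls. The means were 708 ± 67.4 FPKM (SD, n = 2), 425 ± 93.1 (SD, n = 4) and 291 ± 120 (SD, n = 4). The log2 fold change of Agr2 was -0.91 (SE 0.30) in SAP against control, with an edgeR adjusted p of 0.459, and -0.47 (adjusted p = 0.517) with offsets for gene length. In JZL184 against control it was -1.32 (SE 0.38), with an edgeR adjusted p of 0.0894. DESeq2 gave -1.34 with an adjusted p of 0.0273. With edgeR, the change was -1.55 (adjusted p = 0.0381) without JZL184 library 3 and -1.29 (adjusted p = 0.0223) with 3 separate control libraries. The latter fit counts the near-identical control libraries 1 and 2 as independent, so its p-value is too small if they are 1 sample. The range of its adjusted p over all alternatives was 0.0138 to 0.577. In JZL184 against SAP the log2 fold change of Agr2 was -0.38 (SE 0.33, adjusted p = 0.508).

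Spdef, the transcription factor that drives goblet cell maturation, did not pass a test in any comparison. It was at 8.70, 9.91 and 9.12 FPKM in the control libraries, at 3.72, 3.70, 7.25 and 8.40 in the SAP libraries and at 5.89, 13.5, 23.3 and 7.78 in the JZL184 libraries. The SAP values were all below the control values, and the JZL184 values overlapped with both, libraries 1 and 4 lying below all controls. By edgeR, Spdef had a log2 fold change of -0.81 (SE 0.46, adjusted p = 0.461) in SAP against control, 1.25 (SE 0.50, adjusted p = 0.198) in JZL184 against SAP and 0.41 (SE 0.51, adjusted p = 0.639) in JZL184 against control. Without JZL184 library 3, which held the highest value, the change was 0.85 against SAP (adjusted p = 0.388) and 0.012 against control, and without SAP libraries 1 and 2 the SAP against control change was -0.30.

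Across the 3 comparisons, edgeR called 0 of the 9 genes tested. A call needed an adjusted p under 0.05 together with a change of more than 2 times in either direction. DESeq2 shares, here and below, are over all genes with any reads (23278, 23991 and 23543 in the 3 comparisons). Shares of the main edgeR fit and limma-voom are over 16029, 15308 and 15916 genes that passed the low-count filter. The DESeq2 shares thus include many genes with few reads and are no like background for lists of expressed genes. In SAP against control the share of all 16029 genes called was 0%, 1 of the 9 genes (Agr2) was at an unadjusted p below 0.05 against 9.09% of all genes, while 0 were called by DESeq2 (0.872% of all genes) and by limma-voom (0.0873%). In JZL184 against SAP edgeR called 0% of all genes, 2 of the 9 (Clca1 and Spdef) were at an unadjusted p below 0.05 against 21.3% of all genes, while DESeq2 called 1 (Clca1) against 5.35% and limma-voom 0 against 4.57%. In JZL184 against control edgeR called 2.16% of all genes, 1 of the 9 (Agr2) was at an unadjusted p below 0.05 against 26.3%. Here 1 gene (Agr2) was called by DESeq2 (8.31% of all genes), by limma-voom (18.3%), with 3 separate control libraries (18.1%), without JZL184 library 3 (5.46%) and without JZL184 libraries 1 and 3 (19.4%). The median log2 fold change of the 9 genes was -0.20, -0.38 and -0.87 in these comparisons, where that of all genes tested was 0.06, -0.05 and 0.08. In normalized counts 2 genes (Agr2 and Spdef) lay below the controls without overlap in the SAP group, against 11.9% of all genes. In the JZL184 group 1 (Clca1) lay below SAP, against 5.59%, and 3 (Clca1, Agr2 and Zg16) lay below the controls, against 19.3%. These comparisons share control or SAP libraries.

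**Figure D3:**
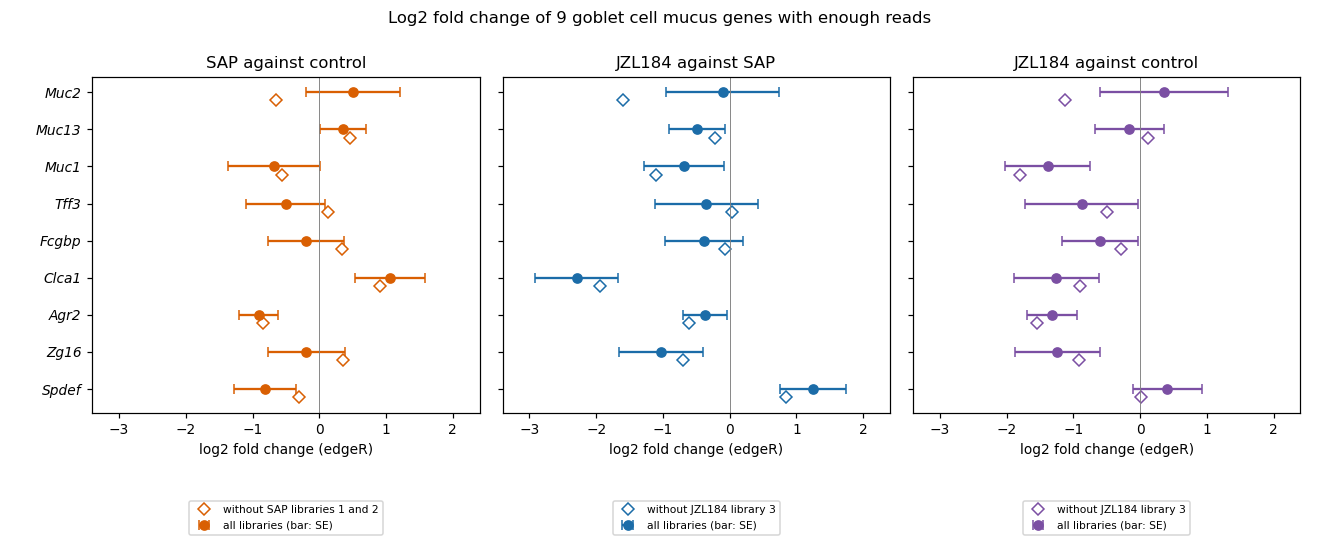
Log2 fold change of the 9 genes with enough reads in the 3 comparisons, from edgeR. Filled points are all libraries with bars for the SE, and open diamonds leave out SAP libraries 1 and 2 (left) or JZL184 library 3 (middle and right). Muc2 changes sign in the left and right panels, and Clca1 in the middle panel stays near -2.

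The 10 genes did not move as a block between libraries. JZL184 library 3 was the lowest of 11 libraries for 5 of them (Muc13, Tff3, Fcgbp, Clca1 and Zg16) and the highest for Muc2 and Spdef. Relative to the mean of the other 3 JZL184 libraries it was at 9.32 times for Muc2, 2.57 times for Spdef and 1.92 times for Agr2, but at 0.0808 times for Tff3, 0.155 times for Clca1 and 0.215 times for Zg16. The Muc2 to Tff3 ratio of FPKM was 3.17 in this library and 0.0168 to 0.326 in the other 10. The part of its gut position and cell content in these values was not tested. In log2 CPM over the 10 samples the 5 genes most like Muc2 among 16569 others were Dhx32 (Pearson r = 0.947), Soga1 (0.926), Ttc39a (0.926), Ankrd50 (0.925) and Slc45a4 (0.924). Without the 2 samples farthest from the median of Muc2, JZL184 library 3 and SAP library 2, these values were 0.852, 0.857, 0.924, 0.827 and 0.893. The correlations are descriptions over samples that share depth and tissue content. SAP library 1, which was kept, was also shifted toward long genes, and the part of that shift in these values was not tested. No member of the goblet cell list was among these 5. Agr2 had r = 0.492, Muc1 0.436, Clca1 -0.143 and Tff3 -0.595, which became 0.771, 0.289, 0.454 and 0.059 without the same 2 samples. Muc13 had -0.535, Zg16 -0.363, Fcgbp -0.618 and Spdef 0.054, which became 0.234, 0.208, -0.315 and -0.104.

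**Figure D4:**
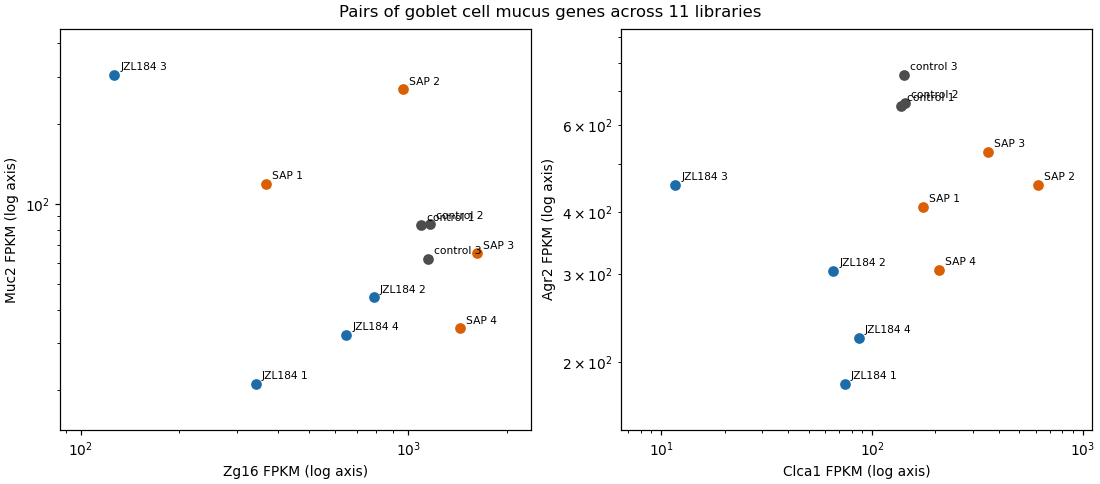
FPKM of Muc2 against Zg16 (left) and of Agr2 against Clca1 (right) in the 11 libraries, on log axes, with each point labelled by group and library. JZL184 library 3 has the highest Muc2 beside the lowest Zg16, and the other JZL184 libraries lie low for both members of each pair.

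Other genes of the mucus pathway were taken from lists chosen with earlier results of these data known. Of 33 genes of mucin O-glycosylation, 32 were tested and edgeR called 1, in JZL184 against control (2.16% of all genes). C1galt1, which extends the first sugar of O-glycans to core 1, was at 1.33, 1.23 and 2.49 FPKM in the control libraries, at 13.9, 12.4, 1.81 and 2.67 in the SAP libraries and at 12.9, 8.01, 8.95 and 9.74 in the JZL184 libraries. It rose in JZL184 against control with a log2 fold change of 2.37 (SE 0.36, adjusted p = 0.0239). SAP libraries 1 and 2 were at the level of the JZL184 libraries and SAP libraries 3 and 4 near the controls. In JZL184 against SAP edgeR called 0 of the 32 and DESeq2 called 3 (5.35% of all genes), with 8 at an unadjusted p below 0.05 (21.3% of all genes). The genes called by DESeq2 were Galnt5, which adds the first sugar (log2 fold change -1.61, DESeq2 adjusted p = 0.00623), and the sialyltransferases St3gal3 (1.69, adjusted p = 0.0449) and St6galnac2 (2.37, adjusted p = 0.0293). By edgeR, the changes of St3gal3 and St6galnac2 were 1.69 and 2.37 with all libraries, and 0.99 and 0.87 without JZL184 library 3. The list's median log2 fold change was 0.28, -0.08 and 0.13 in SAP against control, JZL184 against SAP and JZL184 against control.

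Of 21 transcription factors and Notch pathway genes of the secretory lineage, edgeR called 2 in JZL184 against control, where it called 2.16% of all genes. The Notch ligand Dll1, which marks early secretory cells, was at 0.90, 1.01 and 2.11 FPKM in the control libraries, at 3.03, 2.24, 1.96 and 2.39 in the SAP libraries and at 6.60, 5.29, 6.84 and 7.41 in the JZL184 libraries. All JZL184 libraries lay above all others. Dll1 rose in JZL184 against control (log2 fold change 2.07, SE 0.38, adjusted p = 0.0368), and against SAP its change of 1.60 had an edgeR adjusted p of 0.0604 and a DESeq2 adjusted p of 6.8e-07. The ligand Dll4 fell by 1.75 on the log2 scale (SE 0.35, adjusted p = 0.0468) in JZL184 against control. By DESeq2 alone, Foxa1, a forkhead factor, was higher in JZL184 against control (1.85, adjusted p = 0.00915) and Hnf4a, a nuclear receptor of enterocyte identity, was lower in JZL184 against SAP (-1.51, adjusted p = 0.0105). The list's median log2 fold change was 0.20, 0.10 and -0.02 in the 3 comparisons.

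Of 28 genes for the folding, packing and release of mucin, 27 were tested and edgeR called 1, in JZL184 against control (2.16% of all genes). Capn9, a calpain protease of the gut epithelium, was at 6.30, 6.06 and 4.85 FPKM in the control libraries, at 1.59, 3.69, 4.90 and 3.04 in the SAP libraries and at 1.13, 0.34, 0.22 and 0.51 in the JZL184 libraries. It fell by 3.38 on the log2 scale (SE 0.56, adjusted p = 0.0280) against control, and every JZL184 library lay below every other. In JZL184 against SAP edgeR called 0, with 12 at an unadjusted p below 0.05, against 21.3% of the 15308 genes that passed the filter. DESeq2 called 9, all lower, against 5.35% in either direction of 23991 genes with any reads. The log2 fold changes that follow are those of DESeq2. Among these were Ern2, the stress sensor of mucus-secreting cells (-2.82), Capn9 (-2.46), Rab27a, a GTPase of granule release (-1.61), and Bcas1 (-1.45). In JZL184 against control DESeq2 called 7, all lower (8.31% of all genes in either direction), among them Scin, an actin-severing protein (-2.23) and Nlrp6 (-1.42), an innate immune sensor. In normalized counts of the JZL184 group 9 of the 27 lay below SAP without overlap, against 5.59% of all genes, and 13 of 27 below control, against 19.3%. The median edgeR log2 fold change of the list was 0.05, -0.58 and -0.64, and that of all genes is given above. Of 12 pan-epithelial markers 4 had a positive edgeR log2 fold change in JZL184 against control, and the list's median was -0.65. There edgeR called 2, both lower (2.16% of all genes in either direction), among them the keratin Krt19 (-1.59, adjusted p = 0.0418). DESeq2 called 4 of the 12 there, all lower (8.31% of all genes in either direction). In normalized counts 6 of the 12 lay below control without overlap, against 19.3% of all genes, and 1 lay above. Against SAP, 8 of the 12 were positive in the JZL184 group, with a median of 0.30. There edgeR and DESeq2 called 0 (0% and 5.35% of all genes), and 1 was at an unadjusted p below 0.05 (21.3% of all genes). The summed FPKM of these markers was 19820 to 24550 in the control libraries, 9798 to 17160 in the SAP libraries and 10420 to 13080 in the JZL184 libraries. Its part in these values was not tested.

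Of 16 other mucins and related surface proteins 6 to 7 passed the filter and edgeR called 0 in each comparison, with 0, 2 and 2 at an unadjusted p below 0.05 (9.09%, 21.3% and 26.3% of all genes). Muc3, a transmembrane mucin of the brush border, was at 142, 135 and 112 FPKM in the control libraries, at 254, 137, 94.3 and 103 in the SAP libraries and at 217, 225, 353 and 481 in the JZL184 libraries. Against SAP, the JZL184 group had a log2 fold change of Muc3 of 1.31 (SE 0.38), with an edgeR adjusted p of 0.122 and a DESeq2 adjusted p of 0.0281. Of 30 other products of goblet cells and the mucus layer, 24 or 25 were tested and edgeR called 0 in each comparison. DESeq2 called 2, 4 and 6 of them, against 0.872%, 5.35% and 8.31% of all genes, and 6, 4 and 8 had an unadjusted p below 0.05, against 9.09%, 21.3% and 26.3%. The channel Best2 was at 0.13, 0.13 and 0.27 FPKM in the control libraries and at 2.76, 2.03, 5.42 and 8.49 in the SAP libraries. The groups did not overlap, with a log2 fold change of 4.45 (SE 0.85, edgeR adjusted p = 0.338, DESeq2 adjusted p = 3.3e-07). In JZL184 against control DESeq2 also called the chloride-bicarbonate exchanger Slc26a3 (log2 fold change 1.41) and Retn (1.35) higher, and the calcium pump Atp2c2 (-2.02) and the brush border metalloprotease Mep1a (-1.22) lower.

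Of 12 cytokines and receptors that act on goblet cells, 9 were tested in JZL184 against control. There edgeR called 3, all higher, and DESeq2 called 4, against 2.16% and 8.31% of all genes in either direction. Il22 and Il10 had fewer than 10 reads in every control library and passed the low-count filter only through the JZL184 libraries. Genes as low in control that did not rise were not tested. The filter thus favours rises, and these counts are descriptions only. Il22, which acts on epithelial cells to raise mucus and antimicrobial genes, was at 0.06, 0.12 and 0.23 FPKM in the control libraries, at 1.29, 0.17, 0.18 and 0.51 in the SAP libraries and at 18.5, 8.70, 1.22 and 13.6 in the JZL184 libraries. It rose in JZL184 against control (log2 fold change 6.05, SE 1.22, adjusted p = 0.0476), with JZL184 library 3 lowest in its group. Since Il22 had 1, 2 and 4 reads in the control libraries, the size of this fold change depends on the prior count of the fit. Against SAP its change was 4.43 with an edgeR adjusted p of 0.0851 and a DESeq2 adjusted p of 5.1e-06. Il10, an anti-inflammatory cytokine, was at 0.03 to 0.08 FPKM in the control, 0.04 to 0.14 in the SAP and 0.35 to 0.58 in the JZL184 libraries with 3 to 9 reads in the control libraries, and rose in JZL184 against control (2.95, adjusted p = 0.0452). Il18, at 0.58 to 1.15, 1.12 to 2.78 and 2.54 to 4.83 FPKM in the same order, rose likewise (2.01, adjusted p = 0.0357). Areg, an epithelial growth factor, had a log2 fold change of 3.71 (edgeR adjusted p = 0.0641, DESeq2 adjusted p = 3.6e-06). Il13 and Il4, the classic inducers of goblet cell genes, were at 0.15 FPKM or less in all 11 libraries.

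**Figure D5:**
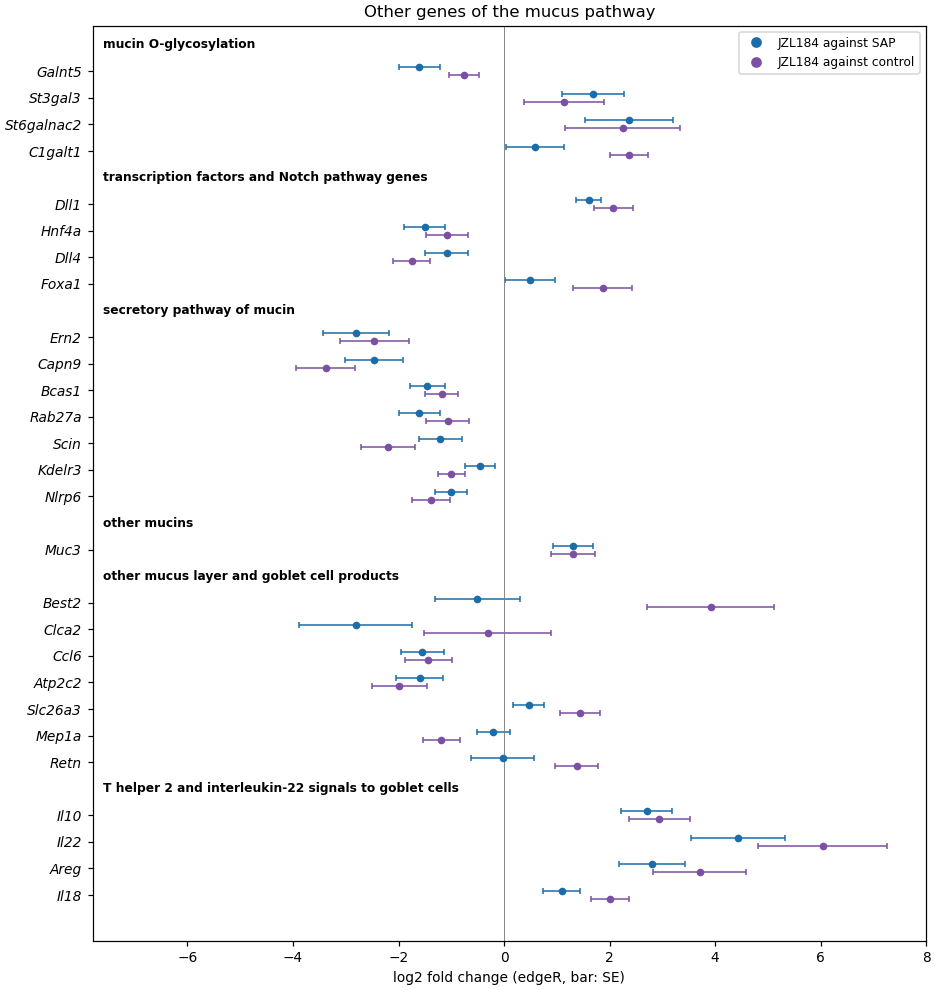
Log2 fold change (edgeR, bars are SE) of the named genes of the other mucus pathway lists, in JZL184 against SAP (blue) and JZL184 against control (purple). The size of the Il22 change rests on few control reads. The genes shown were picked because edgeR or DESeq2 called them, at most 4 of smallest p per list and comparison. Those from the secretory pathway of mucin all lie below 0, and those from the signals to goblet cells all lie above 0. Of all 27 secretory pathway genes tested, 6 were positive against SAP and 5 against control. Of the 9 signal genes tested, 6 and 7 were positive. Among these, Il22 and Il10 passed the low-count filter through the JZL184 libraries, so the filter favours rises.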

How the data were processed

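Libraries of stranded mRNA from rat ileum were sequenced in pairs. The authors removed reads under 16 bases with FASTX-Toolkit 0.0.13, aligned the rest to mRatBN7.2 with HISAT2 and deposited a count of reads per gene, without normalization. The authors also deposited FPKM values to 2 decimals, per length and library size. How reads were assigned to genes, and with which annotation, is not given in the sources used here. FPKM was used for levels and counts for tests. Depth was 26341299 to 33847135 reads on genes per library, so that the spread between samples and not counting set the precision of all but Muc1 and Retnlb.

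Pairs of groups were compared in R 4.3.3 with edgeR 4.0.16 (quasi-likelihood, TMM, default filter with minimum count 10). The p-values were adjusted by Benjamini-Hochberg over all genes tested, and a call needed an adjusted p under 0.05 and more than 2 times or less than 0.5 times the level. Counts of control libraries 1 and 2 were summed and their FPKM averaged. Alternatives were DESeq2 1.42.0, limma-voom with quality weights (limma 3.58.1), DESeq2 size factors, other filters, offsets for gene length (lowess span 0.3), 1 fit of all groups, 3 separate controls, the replicate number as a block, and leaving out libraries. DESeq2 was run on every gene with any reads, without the low-count filter of edgeR. The fit with 3 separate controls counts the near-identical control libraries 1 and 2 as independent. The fits without JZL184 libraries 1 and 3 were added after seeing the data. The fits were tested on simulated data. Normalized counts are CPM after TMM, with a prior count of 2 on the log2 scale for likeness to Muc2.

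The members and the gene lists were chosen with earlier results of these data known. Named were all 10 members, the members of each other list called by edgeR or DESeq2 (at most the 4 of smallest p per list and comparison), the 5 genes most like Muc2, and marker genes. Car1, Hoxd10, Fabp6, Gata4, Lct, Krt19, Il13 and Il4 were named after their values were seen. Lists of enteroendocrine and tuft cells, neutrophils and macrophages, lymphocytes and exocrine pancreas were also summed.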

Additional observations from a re-analysis of the deposited data

Results flagged for a closer look

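Among 20 groups of 4 libraries (10 genes in the SAP and JZL184 groups), 2 held a library far from the other 3 by Dixon's test. For normally distributed values, chance flags about 1 in 20 groups. The highest JZL184 library for Muc2, library 3, was at 304.37 FPKM, and its gap to the next library was 0.917 of the range of the group. The highest SAP library for Retnlb was at 0.05 FPKM, a gap of 1 times the range, since 1 read fell in SAP library 1 and 0 in the other 3. Any lone read among counts of 0 gives this gap, so the rate does not apply to Retnlb.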

How the results depend on the processing

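Of 457 log2 fold changes of the 9 genes under the alternatives, 423 kept their direction and their side of the threshold, 6 came past it and 28 changed sign. The number of genes called in JZL184 against SAP was 1 with DESeq2 (Clca1). In JZL184 against control it was 1 (Agr2) with DESeq2, limma-voom, 3 separate control libraries and without JZL184 libraries 1 and 3, and it ran from 0 to 1 when single libraries were left out. The cause was not tested. In SAP against control it was 0 under every alternative run.

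Muc2 in SAP against control had a log2 fold change of -0.0072 with limma-voom, -0.37 with gene length offsets, -0.64 without SAP libraries 1 and 2, and -0.18 (without SAP library 2) to 0.81 (0.79 without SAP library 4) with single libraries left out. In JZL184 against SAP it was 0.30 with length offsets, 1.02 without SAP libraries 1 and 2, and -1.60 to 0.59 with single libraries left out. In JZL184 against control it was -0.63 with limma-voom, -0.097 with length offsets, -0.86 without JZL184 libraries 1 and 3, and -1.13 to 0.70 with single libraries left out. Without SAP libraries 1 and 2, the SAP against control changes of Tff3, Fcgbp and Zg16 were 0.13, 0.33 and 0.35, and that of Zg16 was 0.23 with length offsets. Without JZL184 libraries 1 and 3, Tff3 was at 0.34 against SAP and Muc13 at 0.25 against control. With single libraries left out, the SAP against control changes ran from -1.20 to 0.17 for Muc1, from -0.56 to 0.098 for Fcgbp and from -0.44 to 0.11 for Zg16. Tff3 ran from -0.97 to 0.031 in JZL184 against SAP, and Muc13 from -0.43 to 0.14 (0.12 without JZL184 library 3) in JZL184 against control. The lone control sample in such fits is assumed to vary like the other group.

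The replicate number was also fitted as a block. Same-numbered SAP and JZL184 libraries had correlations of their deviations of 0.121, -0.435, -0.009 and -0.093, and 1 of 8 libraries correlated best with its own number. These values gave no sign of a pairing by number, but a weak pairing could be missed among libraries that differ this widely. With the block 0 of the 9 genes were called in each comparison, and with 3 separate controls Muc2 was at -0.36 in JZL184 against control. Over all genes, the block gave 0 calls in JZL184 against SAP, also with length offsets, 1 in SAP against control and 1488 in JZL184 against control, against 2800 without it. All-gene counts in JZL184 against control were 343 in edgeR, 1956 in DESeq2, 2906 in limma-voom, 929 without the filter on low counts and 2967 without JZL184 libraries 1 and 3. In SAP against control they were 0, 203, 14 and 14, with 33 for 3 separate controls, 4 for 1 fit of all groups and 74 without SAP libraries 1 and 2. In JZL184 against SAP they were 0 in edgeR, 1283 in DESeq2, 699 in limma-voom, 27 without the filter, 33 with length offsets, 207 with 1 fit of all groups and 7 without JZL184 libraries 1 and 3. With single libraries left out they ran from 0 to 3 in SAP against control, 0 to 655 in JZL184 against SAP (655 without JZL184 library 1) and 0 to 1867 in JZL184 against control.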

Other observations

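Other cell type lists were measured in the same libraries. The summed FPKM of 10 neutrophil and macrophage markers was 8.17 to 12.4 in the control libraries, 20.8 to 98.0 in the SAP libraries and 28.6 to 259.8 in the JZL184 libraries. S100a8, a neutrophil protein, had 0, 4 and 10 reads in the control libraries, 58 to 730 in the SAP libraries and 95 to 2206 in the JZL184 libraries. Its adjusted p in SAP against control was 0.459 with edgeR and 1.1e-05 with DESeq2. In JZL184 against control these were 0.0594 and 3.7e-05. The macrophage receptor Cd163 had a log2 fold change of 2.99 in SAP against control (edgeR adjusted p = 0.403, DESeq2 adjusted p = 0.00012). It was also at 2.99 in JZL184 against control (edgeR adjusted p = 0.0398), while Csf1r, another macrophage receptor, was at -1.42 there (edgeR adjusted p = 0.0631). DESeq2 gave Csf1r an adjusted p of 0.00978 in that comparison, and called Csf1r and Adgre1 lower in JZL184 against SAP. The summed FPKM of 9 lymphocyte markers was 297 to 316, 98.5 to 266 and 149 to 217 in the same order, and Jchain, which links IgA for transport into the mucus, fell by 2.13 on the log2 scale in JZL184 against control (adjusted p = 0.0350). Summed markers of enteroendocrine and tuft cells were at 899 to 1086, 546 to 953 and 384 to 1579 FPKM. The highest sum was that of JZL184 library 3, in which Chga (538) and Chgb (1001) made up most of it, while the geometric mean of the 12 markers (taken after adding 1 to each FPKM, then removing it) was 6.06 there, second lowest of the 11 libraries, and 11.9 to 13.2 in the control libraries. Exocrine pancreas markers were at 12.2 or less in all libraries.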
